A study of Mus musculus with 6 samples.

Results

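The baseline transcriptome of mouse AKP colon tumour organoids was described from the 3 libraries with the genotype label Control, out of 6 libraries in the series. They were chosen by that label alone. The other 3 libraries, in which Sox17 was removed with CRISPR-Cas9, were not compared here. The labels describe the Control cells as AKP organoids grown from tumours that had formed in vivo. They do not say which alleles the cells carry, what the Control cells received in place of the deletion, whether the line is 1 clone, or whether the 3 libraries came from separate cultures. The spread among them may therefore be technical.

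AKP is the field's usual short name for intestinal organoids with a set of engineered driver mutations, Apc and Trp53 among the genes, that are often found together in human colorectal cancer. Loss of Apc keeps Wnt signalling active without added ligand, and loss of Trp53 removes a brake on damaged cells. Organoids are spheres of epithelium grown in gel without the stroma, vessels and immune cells of the tumour. The normal colon epithelium holds Lgr5+ stem cells at the crypt base and absorptive, goblet, enteroendocrine and tuft cells above them. Injured or fetal gut epithelium instead expresses a set that includes Ly6a (the surface antigen Sca-1), annexins and Krt7.

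The libraries held 27503254, 21238718 and 26466544 expected counts over 23224 gene entries, in the order Control 1, 2 and 3. Levels are given in CPM (counts scaled per 1000000), a share of the library's reads, and as CPM per kb of exon where genes are compared with each other, since a longer transcript gives more fragments. Within a list or family, the genes said to lead are those with the largest share of reads unless a length is named. A gene is called detected at 1 CPM or more in all 3 libraries. The ribosomal RNA entry Rn45s took 0.389%, 2.10% and 0.474% of the counts, so Control 2 stood apart in this respect.

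Of the 23224 entries, 11145 (48.0%) were detected, 5011 were counted below that level and 7068 (30.4%) were at 0 in every library. The detected genes held 99.9% of the counts, and 97.4% of those matched to the annotation were protein coding. Their median was 37.0 CPM, against 0.679 CPM over all entries. At higher thresholds 8775 genes reached 10 CPM, 2220 reached 100 CPM and 89 reached 1000 CPM in all 3 libraries. The 100 most abundant genes held 19.9%, 21.2% and 20.1% of the counts, and 867, 824 and 844 genes together held 50% of them.

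**Figure D1:**
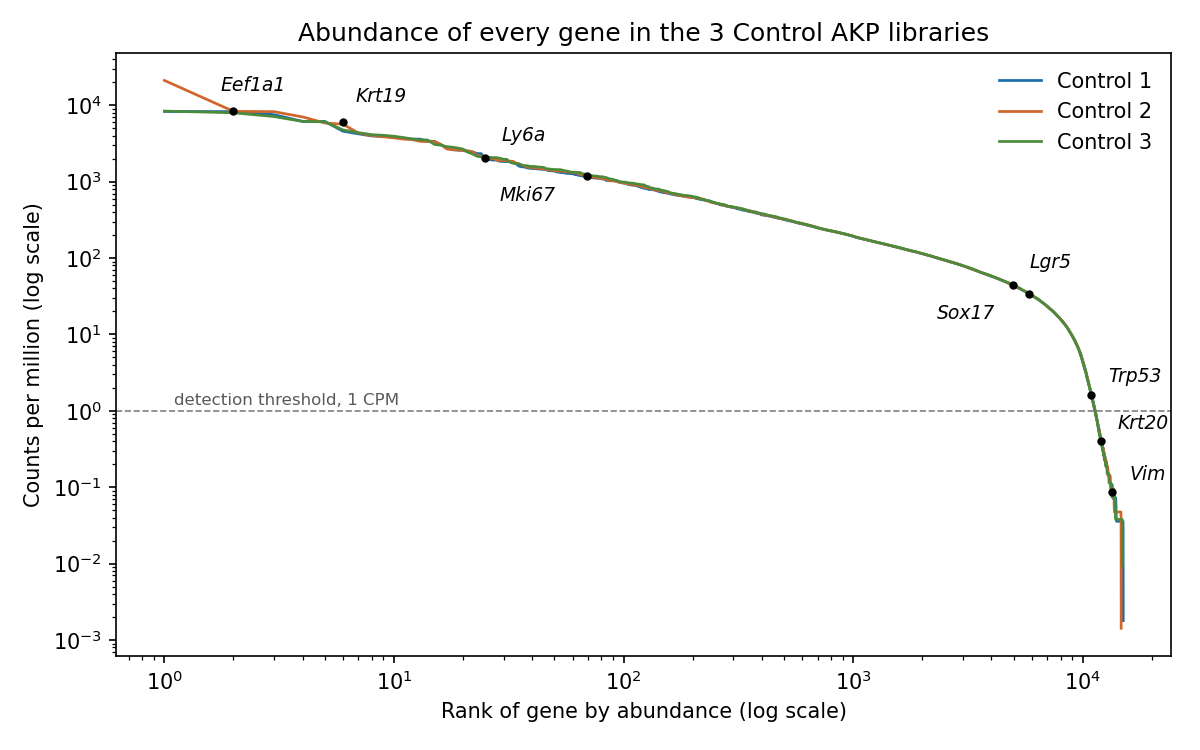
Level of every gene in CPM against its rank in each Control library, both on log scales, with the means of 9 genes marked as black points. The 3 curves lie nearly on each other except at the first rank, where Rn45s reached 21172 CPM in Control 2.

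Among messenger RNAs, the largest share of reads went to the translation elongation factor Eef1a1, at 8260, 8250 and 8397 CPM (8302 ± 82.4, SD, n = 3). The next named genes by share were Gapdh (7232 CPM) and Pkm2 (6054 CPM), enzymes of glycolysis, and the intermediate filament gene Krt19, at 6143, 5649 and 6075 CPM. The elongation factor Eef2 followed at 4432 CPM. The structural genes Actb, Krt8 and Krt7, the glycolysis gene Eno1 and the membrane protein gene Emp1 came next, each between 3613 and 4059 CPM. An unnamed RIKEN entry, A130040M12Rik, took 8205 CPM, and no length was matched to it. Emp1 varied little, with 3614, 3606 and 3620 CPM.

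Per kb of exon the order was different, and 9 of the 20 highest genes were also among the 20 highest by share. Eef1a1 stayed first at 3330 CPM per exon kb and Krt19 came next at 3211. S100a11, a small calcium-binding protein gene, followed at 2214 CPM per exon kb. Ly6a was also among the 10 highest at 1686 CPM per exon kb, with 2032 CPM of the reads. The length used matters for this order. Per kb of coding sequence, Rpl41 led with 7825 CPM and Emp1 followed with 7527, and Ly6a and Krt19 stood close together at 5055 and 4926.

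Genes for cytosolic ribosomal proteins formed the largest of the protein families examined, with 6.53%, 6.63% and 7.26% of all counts. Of 86 entries 83 were detected (96.5%, against 48.0% of all entries), with a median of 764 CPM. Messenger RNAs of this family are known in vertebrates for a stretch of pyrimidines at the 5′ end that ties their translation to growth signals, so the annotated first bases are shown for the 5 members of highest mean CPM, with the letters CTTT in capitals where they lie within the first 10 bases.
Rplp0: ggaccgcctggttctcctat
Rps2: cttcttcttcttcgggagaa
Rpsa: gaggCTTTttccggagcgga
Rpl4: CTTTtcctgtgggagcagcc
Rpl3: agggggcggagccatcactt
These 20-base stretches are the sense-strand starts of the first listed protein-coding transcript in GENCODE M21, on GRCm38. Rplp0 lies at chr5:115559467-115559486, Rps2 at chr17:24720110-24720129, Rpsa at chr9:120127689-120127708 and Rpl4 at chr9:64173375-64173394, all on the plus strand, and Rpl3 at chr15:80083387-80083406 on the minus strand. Each of the 5 stretches lies within the first exon.

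The CTTT letters were found on the sense strand in 8 of 80 detected ribosomal protein genes with such a start (10%), against 2.81% of all detected protein-coding genes. The share was close to that in nuclear-encoded respiratory chain and ATP synthase genes (7 of 81, 8.64%) and in translation factors (5 of 59, 8.47%). It was 2.94% in proteasome genes, 1.47% in mitochondrial ribosomal protein genes and 0 of 16 in glycolysis genes. Rps2 opens with a run of C and T and does not hold these letters, so the search counts only part of such starts. Whether the annotated starts are those used in these cells was not tested, so the shares describe the annotation. The mean levels of the 5 printed genes ran from 1653 CPM (Rpl3) to 2648 CPM (Rplp0). Among lower members Rpl34 was at 19.8 CPM, while Rpl34-ps1, named as a pseudogene copy, was at 374 CPM. How reads were divided between such copies was not tested.

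Translation factors held 3.12%, 3.09% and 3.19% of the counts, chaperonins and heat shock proteins 1.75%, 1.81% and 1.85%, and nuclear-encoded respiratory chain and ATP synthase subunits 1.09%, 1.11% and 1.19%. Keratins took 1.86%, 1.72% and 1.86%, a share close to that of the heat shock proteins, from 20 detected genes of 47. That was 42.6% of the keratin genes, near the 48.0% of all entries detected. The family was matched by gene symbol, so any keratin gene listed under another name was left out of its share, count and ranking. Annexins, which bind membranes, held 0.735%, 0.726% and 0.756%, and the S100 proteins 0.505%, 0.493% and 0.537%. At the other end, 1 of 1101 olfactory receptor entries was detected (Olfr613, at 11.4, 14.0 and 11.7 CPM) and 1065 were at 0. Of 324 vomeronasal receptor entries 3 were detected, led by Vmn1r58 at 15.4 CPM, and 302 were at 0.

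**Figure D2:**
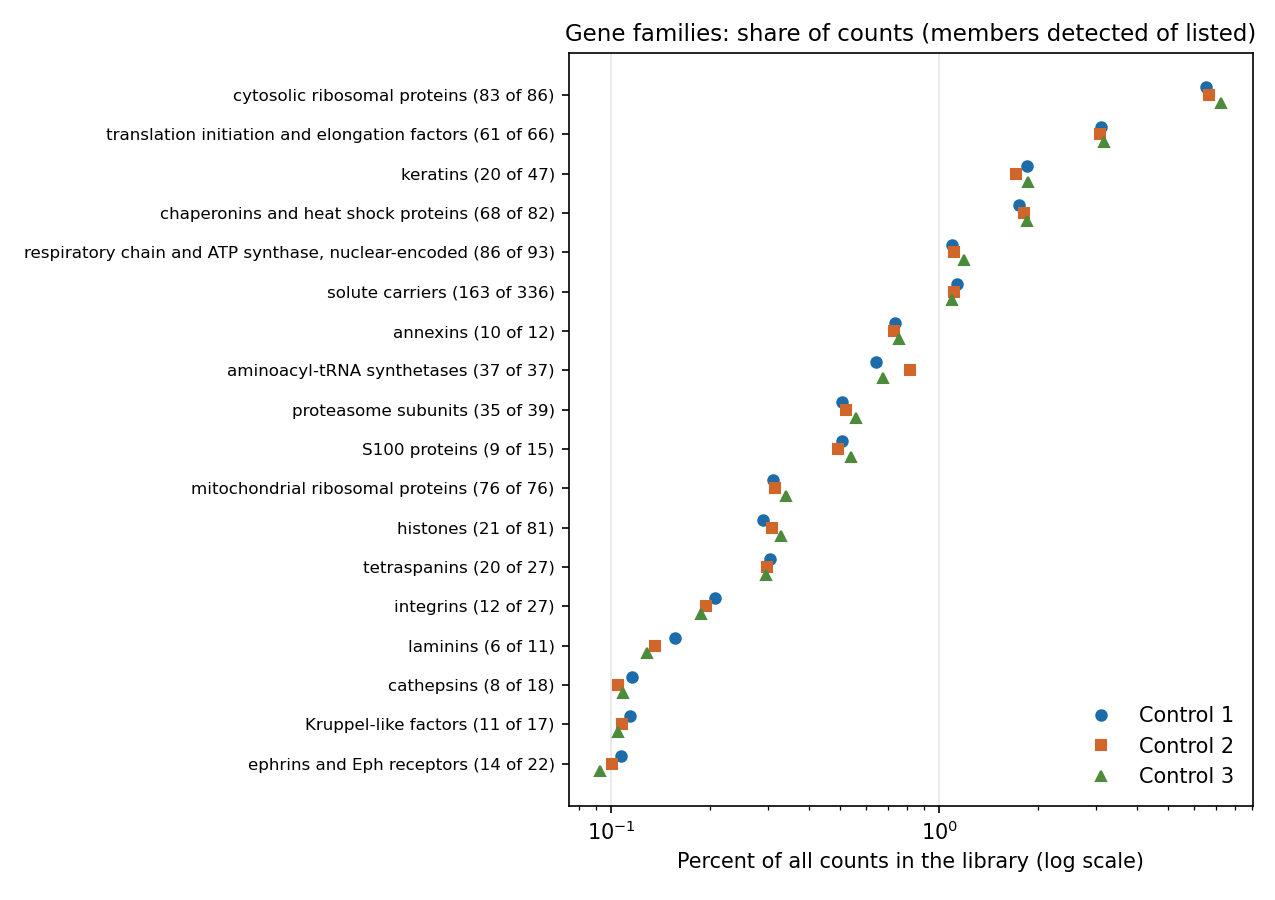
Share of all counts held by 18 gene families in each Control library, on a log scale, with the number of members detected of those listed. The 3 libraries lie close together in most families, and the aminoacyl-tRNA synthetases are higher in Control 2 (0.817% against 0.642% and 0.674%).

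The epithelial label was checked against 22 general epithelial genes, of which 21 were detected (95.5%, against 48.0% of all entries), with a list median of 321 CPM. Epcam, a surface marker of epithelia, was at 538, 529 and 522 CPM. Cdh1, the adhesion protein E-cadherin, was at 733, 682 and 646 CPM, and Vil1, the microvillus protein villin, at 345, 325 and 318 CPM. The member below the threshold was Krt20, a keratin of mature colonocytes, at 0.503, 0.475 and 0.227 CPM. In bulk RNA, fewer cells of a type and less RNA per cell cannot be told apart.

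Simple-epithelial keratins led their family. Krt19 was highest on both length scales, at 3211 CPM per exon kb and 4926 per coding kb. Krt8 and Krt18, which pair into filaments, stood at 2036 and 1370 CPM per exon kb. The place of Krt7 depended on the length used: it stood at 553 CPM per exon kb, below Krt4 at 726, and at 2846 per coding kb, above Krt8 at 2711 and Krt4 at 983.

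Squamous genes were present in part. Of 18 listed genes 10 were detected (55.6%), near the 48.0% over all entries. Krt4 and Sprr2a1 held most of the list's 3331 CPM. Krt4, a keratin of stratified mucosa, was at 1601, 1463 and 1582 CPM. Sprr2a1, a cornified-envelope gene, was at 1451, 1345 and 1437 CPM and shared identical values with its near-identical copy Sprr2a2, so the counts could not be assigned to either copy. Krt14 was at 113, 124 and 137 CPM, while its basal-cell partner Krt5 was at 0 in all 3 libraries and the basal regulator Trp63 was at 0.144, 0.0475 and 0.0758 CPM, at or under 4 counts a library.

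Markers of the crypt base were detected for 15 of 19 genes (78.9%, against 48.0% of all entries), with a list median of 101 CPM. The adhesion receptor Cd44 was at 645, 620 and 554 CPM, Prom1 at 332, 322 and 325 CPM, and the receptor Ephb2 at 274, 264 and 242 CPM. Lgr5, the receptor that defines crypt base stem cells, was at 47.5, 48.1 and 38.1 CPM (44.6 ± 5.57), lowest in Control 3. The stem cell regulator Ascl2 was at 30.7, 31.6 and 28.5 CPM. Olfm4 was at 0.108, 0 and 0.0379 CPM, Smoc2 at a mean of 0.809 CPM and Msi1 at 0. Lgr5 was detected, while Olfm4 and Smoc2 on the same list did not reach 1 CPM in all 3 libraries. The list was not limited to genes of the colon, and no normal colon was measured.

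Fetal-like and regenerative genes were detected for 20 of 22 (90.9%, against 48.0% of all entries), with a list median of 133 CPM. Krt7 and Ly6a led by share, with Ly6a at 1978, 2040 and 2078 CPM. The lipid-binding annexin gene Anxa1 was at 1315, 1421 and 1470 CPM, and Msln, the surface protein mesothelin, at 693, 643 and 637 CPM. Per exon kb Ly6a stood at 1686 CPM and Lgr5 at 4.34. On the coding scale Ly6a stood at 5055 CPM. The members near the threshold included the YAP targets Ctgf (mean 1.19 CPM) and Cyr61 (mean 1.79 CPM), and the growth factor gene Ereg was at 0.

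Wnt targets and feedback genes were detected for 16 of 23 (69.6%, against 48.0% of all entries), with a median of 28.2 CPM. The transducer Ctnnb1 was at 1083, 1089 and 1166 CPM, and its target Ccnd1, cyclin D1, at 628, 631 and 660 CPM. The feedback gene Rnf43, whose product removes Wnt receptors, was at 225, 200.5 and 187 CPM, Notum, a secreted Wnt inactivator, at 203 CPM and Axin2 at 152 CPM. Dkk1 and Dkk3, which encode secreted proteins of the Dickkopf family, were at 0, and the transcription factor Lef1 was at 0.395, 0.441 and 0.606 CPM. Of 19 Wnt ligand genes 2 were detected, Wnt7b at 188, 183 and 182 CPM and Wnt7a at 5.32 CPM. Among the receptors 6 of 10 Frizzled genes were detected, led by Fzd1 at 60.8 CPM.

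ERK feedback genes and ligands were detected for 21 of 22 (95.5%, against 48.0% of all entries), with Ereg at 0. Ier3 was at 513, 493 and 457 CPM, Phlda1 at 403, 402 and 376 CPM, and the ERK phosphatase gene Dusp6 at 134, 137 and 123 CPM. The EGF receptor ligand Tgfa was at 110, 102 and 98.1 CPM.

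Of the genes behind the AKP name and the study's target, Apc was at 21.8, 20.2 and 19.8 CPM and Sox17 at 34.1, 34.3 and 34.1 CPM (34.2 ± 0.103). Trp53 was at 1.69, 1.57 and 1.63 CPM, just above the detection threshold. Gene-level counts do not show which allele was read. Of 20 genes known as p53 targets 18 were detected (90%, against 48.0% of all entries), led by Perp at 316 CPM, a desmosome gene. The cell cycle inhibitor Cdkn1a was at 76.0, 72.8 and 59.1 CPM and the p53 ligase gene Mdm2 at 63.1, 65.0 and 62.9 CPM.

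All 27 cell cycle drivers were detected (100%, against 48.0% of all entries), with a list median of 154 CPM. The proliferation marker Mki67 was at 1151, 1168 and 1230 CPM, the topoisomerase gene Top2a at 605, 686 and 737 CPM and the replicative helicase gene Mcm7 at 458, 472 and 531 CPM. All 10 listed cell cycle inhibitors were detected too, with a median of 29.3 CPM. Cdkn1b had the largest share of these at 88.1, 100.1 and 92.8 CPM, and Cdkn2a, which encodes p16 and the alternative product p19Arf, was at 70.9, 72.3 and 77.8 CPM.

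Differentiated intestinal programmes were mostly below the threshold: of 75 distinct genes for absorptive, goblet, Paneth, enteroendocrine and tuft cells, 9 were detected (12%, against 48.0% of all entries) and 33 were at 0. These lists were not limited to genes of the colon, and no normal colon was measured. Of 20 enterocyte genes the only one detected was Fabp2, a fatty acid carrier, at 1.29, 1.62 and 1.25 CPM. Fabp1, Slc2a2 and Car4 were among the 8 at 0. None of 17 enteroendocrine genes was detected: the list summed to 1, 6 and 3 counts in whole libraries, and 12 members were at 0, the regulators Neurog3 and Neurod1 among them. A count of 0 allows up to 3 counts, or 0.108, 0.143 and 0.114 CPM, which covers counting error only.

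Some secretory genes were detected without the rest of their list. For goblet cells this was 5 of 14 (35.7%, against 48.0% of all entries). Agr2, a protein-folding enzyme of mucous cells, was at 265, 258 and 237 CPM. The secretory regulator Atoh1 was at 0.0359, 0 and 0 CPM and Spink4 at 0. For tuft cells it was 2 of 14 (14.3%): Avil, an actin-binding protein gene, at 435, 407 and 376 CPM and Ptgs1, a prostaglandin-synthesis enzyme, at 119, 122 and 118 CPM. Pou2f3, the regulator of tuft cells, had 0, 0 and 0.0379 CPM. The Paneth list had 1 of 10 detected (10%), the metalloproteinase gene Mmp7 at 1.57 CPM, with 7 members at 0, Lyz1 among them.

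Genes of other tissues were mostly below the threshold as well. Of 124 distinct genes over 11 lists (liver, pancreas, lung, fibroblasts, endothelium, immune cells, neurons, muscle, erythroid, germ and pluripotent cells), 7 were detected (5.65%, against 48.0% of all entries) and 52 were at 0. At 5 CPM in all 3 libraries 3 were detected, and 12 had at least 10 counts in each. The liver, pancreas, erythroid, germ cell and pluripotent lists had no member detected. Hopx, counted here as a lung gene and also a crypt gene, was at 138, 143 and 146 CPM. The other detected members were Cd68 (10.6, 8.46 and 7.96 CPM), Tnnt2 (3.59 CPM), Tubb3 (2.22 CPM), Vwf (2.08 CPM), Tie1 (1.28 CPM) and Twist1.

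Twist1, a mesenchymal transcription factor, was at 89.8, 91.1 and 89.9 CPM (90.3 ± 0.748), and it made up most of the 91.0, 92.3 and 91.5 CPM of the 22-gene fibroblast and mesenchyme list. In the same list Col1a1, Col3a1, Pdgfrb and Zeb1 were among 10 members at 0. Vim, the mesenchymal filament vimentin, was at 0.108, 0 and 0.152 CPM, and Snai1 was at 0.359, 0.428 and 0.569 CPM. The leukocyte gene Ptprc (CD45) was at 0.180, 0.380 and 0.493 CPM, and the endothelial gene Pecam1 was at 0. In the endothelial list 2 of 10 genes (20%) and in the immune list 1 of 18 (5.56%) were detected, against 48.0% of all entries. These were the Vwf, Tie1 and Cd68 given above.

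**Figure D3:**
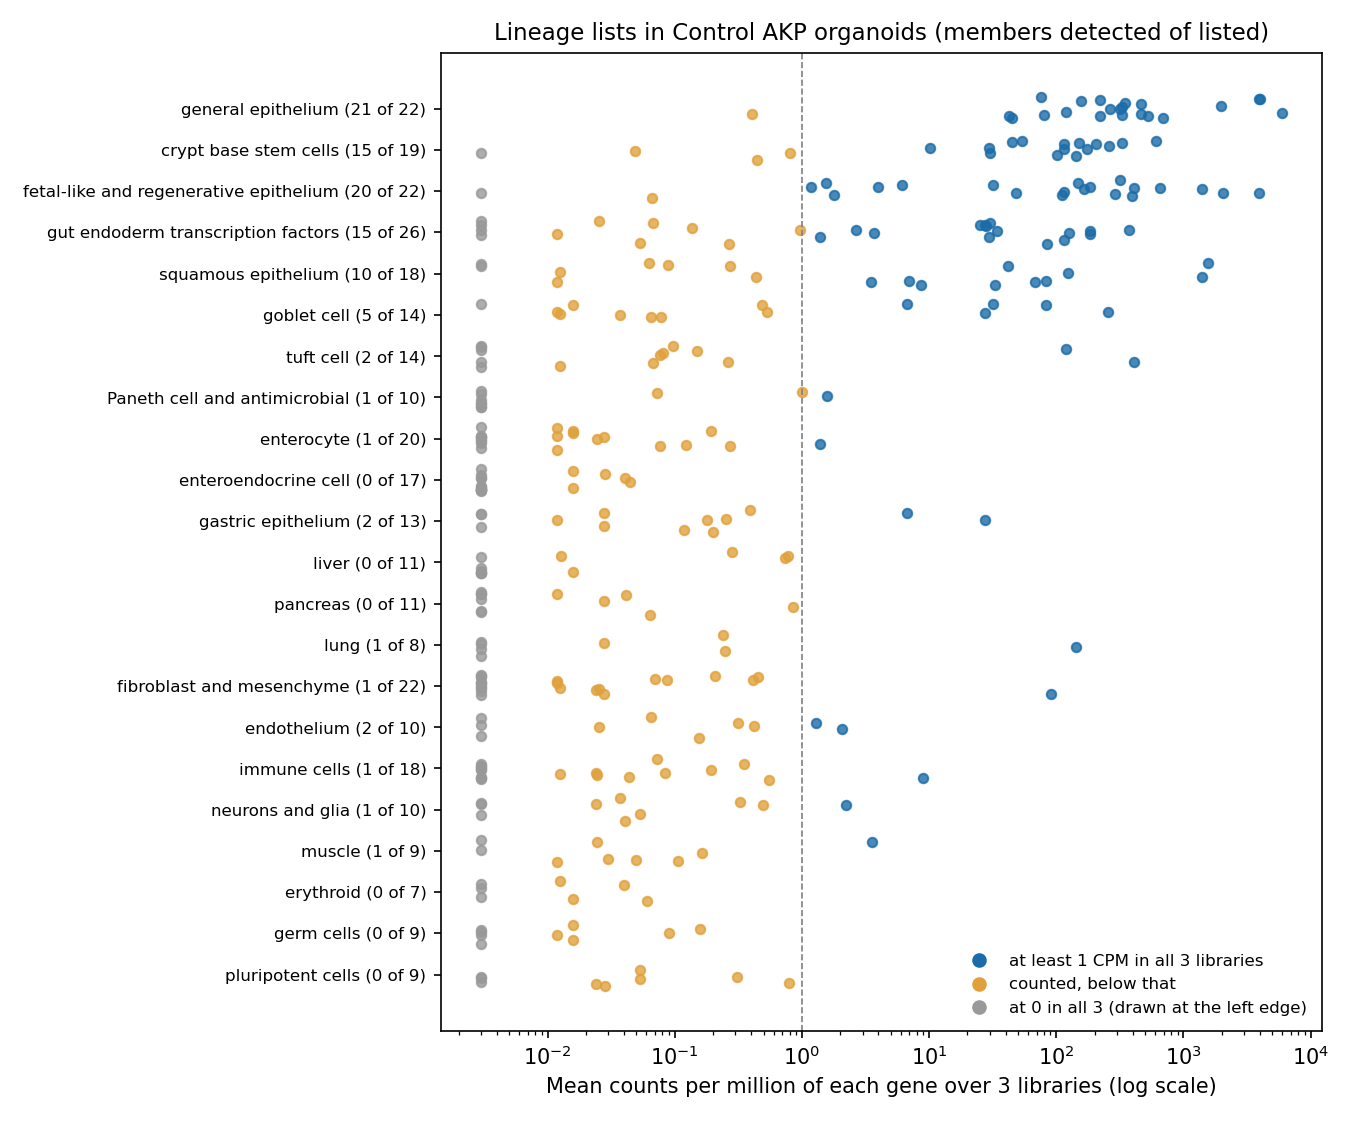
Mean CPM of each member of 22 lineage lists on a log scale, with members detected of listed in the axis labels and members at 0 drawn at the left edge. The epithelial, crypt base and fetal-like lists lie mostly right of 1 CPM, and the differentiated and other-tissue lists mostly left of it.

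Of 26 endoderm transcription factors 15 were detected (57.7%), near the 48.0% over all entries, with a median of 3.19 CPM. Klf4, a factor of differentiating epithelium, was at 385, 377 and 365 CPM. The pioneer factor Foxa1 was at 190, 185 and 179 CPM and the intestinal master regulator Cdx2 at 128, 122 and 129 CPM. Cdx1, a factor of intestinal epithelium, was at 0 in all 3 libraries, Hnf4a was at 3.79, 4.04 and 3.30 CPM, and Gata4 and Gata6 stayed under 0.2 CPM. Sox2 and Barx1, factors of the foregut and stomach, were at 0.

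Hox genes record position along the body, with high numbers towards the hindgut. Of 39 Hox genes 19 were detected (48.7%), near the 48.0% over all entries. The 4 clusters differed: all 11 Hoxa genes were detected, summing to 473, 457 and 453 CPM, and 8 of 10 Hoxb genes, summing to 102, 97.7 and 99.7 CPM. All 9 Hoxc genes were at 0, as were 8 of 9 Hoxd genes, and the remaining one left that cluster at 0.108, 0.190 and 0.0379 CPM. Hoxa10 had the highest level of the family per exon kb (52.7 CPM) and was at 172.6, 171.9 and 172.2 CPM. Hoxa11 followed at 105.3, 104.9 and 104.4 CPM, and Hoxb9 led its own cluster with 40.6, 39.2 and 41.4 CPM. The most posterior genes Hoxa13 and Hoxb13 were at 8.20 and 11.7 CPM.

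**Figure D4:**
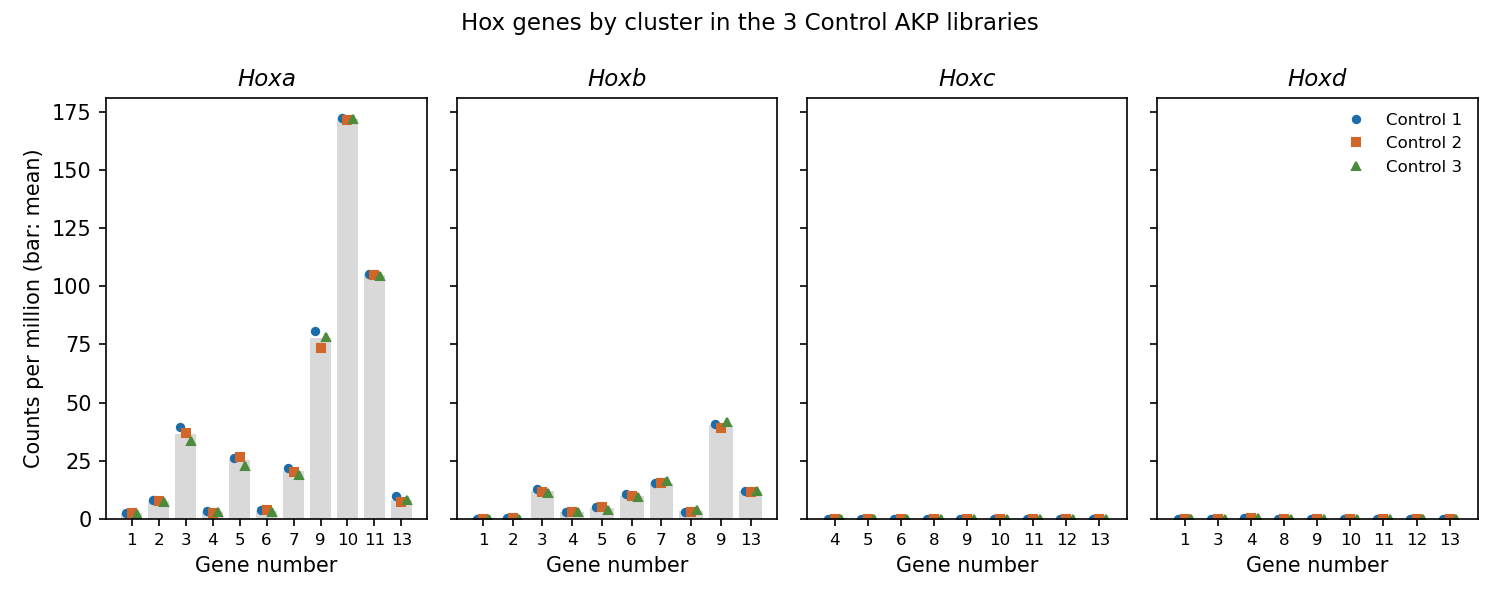
CPM of each Hox gene by cluster, with bars for the mean and points for the 3 Control libraries. Hoxa10 stands highest at 172.2 CPM, and the Hoxc and Hoxd panels lie at or near 0.

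Several signalling pathways were read for both receptors and ligands. The share of all entries detected, for reference, was 48.0%. For Notch, 12 of 18 genes were detected (66.7%), led by the receptor Notch2 (225, 193 and 183 CPM) and the ligand Jag2 (109 CPM), and the targets Hes5 and Hey1 were at 0 while Hes1 was at 60.8 CPM. For TGF-beta and BMP, 16 of 22 were detected (72.7%), with the receptor Tgfbr2 at 237, 225 and 205 CPM and the transducer Smad4 at 80.5, 83.7 and 82.2 CPM. Of 18 YAP and TEAD genes 17 were detected (94.4%), led by Yap1 at 171, 168 and 168 CPM. This list joins pathway members such as Yap1 with targets. Among the targets F3 was at 148 CPM, and Cyr61 and Ctgf were near the threshold at 1.79 and 1.19 CPM. Laminin genes of the epithelial basement membrane were read, with Lama5 at 537 CPM and Lamb3 at 287 CPM, and of 43 collagen genes 6 were detected, led by Col18a1 at 202 CPM.

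Genes for sensing interferon were detected for 24 of 25 (96.0%, against 48.0% of all entries), with a median of 28.6 CPM, led by Stat6 at 161, 152 and 153 CPM and Stat3 at 154, 142 and 132 CPM. MHC class I presentation genes were detected for 16 of 19 (84.2%), also above that share. The heavy chain genes H2-D1 and H2-K1 stood at 199 and 144 CPM per exon kb, and B2m, the light chain both pair with, at 60.7. Per coding kb they stood at 472, 381 and 146 CPM in the same order. B2m was at 52.7, 52.3 and 51.5 CPM. The class I regulator Nlrc5 was at 0.0718, 0 and 0.0379 CPM and the immunoproteasome gene Psmb8 at 0.574, 0.713 and 0.910 CPM. Of 10 class II genes 3 were detected (30%, below the 48.0% of all entries), all of them factors that bind class II promoters (Rfx5, Rfxap and Rfxank), and H2-Aa was at 0. The list of ligands read by immune cells also holds some enzyme genes. On it 11 of 15 genes were detected (73.3%), with Lgals3 (galectin-3) at 695 CPM. The gene of the checkpoint ligand PD-L1, Cd274, stayed below the threshold with 0.798, 0.523 and 0.854 CPM.

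Glycolysis genes held 3.36%, 3.18% and 3.27% of all counts. Of 20 listed 18 were detected (90%, against 48.0% of all entries), with a median of 534 CPM. The lactate dehydrogenase subunits stood far apart: Ldha was at 3376, 3369 and 3517 CPM and Ldhb at 0.359, 0.475 and 0.303 CPM, or 1033 and 0.242 CPM per exon kb. The neuronal enolase gene Eno2 was at 0.0680 CPM, and Eno1 at 3649 CPM. All 19 cholesterol synthesis genes were detected, with a median of 219 CPM and a list sum of 5173, 5141 and 5135 CPM. Among them Idi1, an isomerase of the isoprenoid steps, was at 534, 610.3 and 632 CPM. Xist, which silences an X chromosome in female cells, was at 615, 618 and 509 CPM, and of the Y-linked genes Ddx3y, Kdm5d, Eif2s3y, Zfy1 and Sry were at 0.

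The spread among the libraries was measured over 8921 genes with a mean of at least 10 CPM. The median coefficient of variation was 5.06% (quartiles 3.19% and 7.38%), and 21 genes exceeded 20%. The common biological coefficient of variation in edgeR was 0.0580. Pearson's r of log2 CPM across genes, which are not independent replicates, was 0.996 for Control 1 and 2, 0.994 for 1 and 3 and 0.997 for 2 and 3. Between Control 1 and 3, 60.9% of genes were within 1.1-fold, against 75.3% between 1 and 2 and 81.3% between 2 and 3. The spread was above that of counting alone, with a median ratio of the observed variance to the counting variance of 3.34.

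The largest coefficient of variation was that of Rn45s, at 3845, 21172 and 4754 CPM. Lars2, the gene of the mitochondrial leucyl-tRNA synthetase, moved with it at 400.1, 2107 and 576 CPM, which was 10.4%, 9.95% and 12.1% of the Rn45s count. Without Lars2 the aminoacyl-tRNA synthetases held 0.602%, 0.608% and 0.616% of the counts. Tmem38b was also high in Control 2, at 17.9, 54.5 and 16.7 CPM. Control 3 stood apart in Malat1, a nuclear long noncoding RNA, at 401, 361 and 261 CPM, and in 0610010B08Rik, at 15.3, 14.0 and 29.0 CPM. The mucin gene Muc4 was at 296, 227 and 204 CPM. At the other extreme Afap1 was at 25.2 CPM and Mtmr6 at 129 CPM in each library.

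Some gene groups moved together among the libraries. Of 82 ribosomal protein genes at this level all 82 were higher in Control 3 than in Control 1, with a median log2 difference of 0.19, against 4783 of 8921 genes overall and a median of 0.01. The proteasome subunits (34 of 35 higher, median 0.19) and the cell cycle drivers (24 of 27 higher, median 0.16) went the same way. The crypt base genes went the other way, with 3 of 15 higher and a median of -0.18, and so did the ephrins and Eph receptors, with 0 of 13 higher. Over the same genes, the Control 3 minus Control 1 difference had r = -0.31 with log2 transcript length and r = -0.32 with GC content, and the Control 2 minus Control 1 difference had r = -0.50 with GC content (8818 genes, a description across genes of the same libraries). The median longest transcript was 1100 bases for the ribosomal protein genes, 4310 for the crypt base genes and 3381 for the cell cycle drivers, against 3501 over all these genes. The part of length and GC content in these group differences was not tested.

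**Figure D5:**
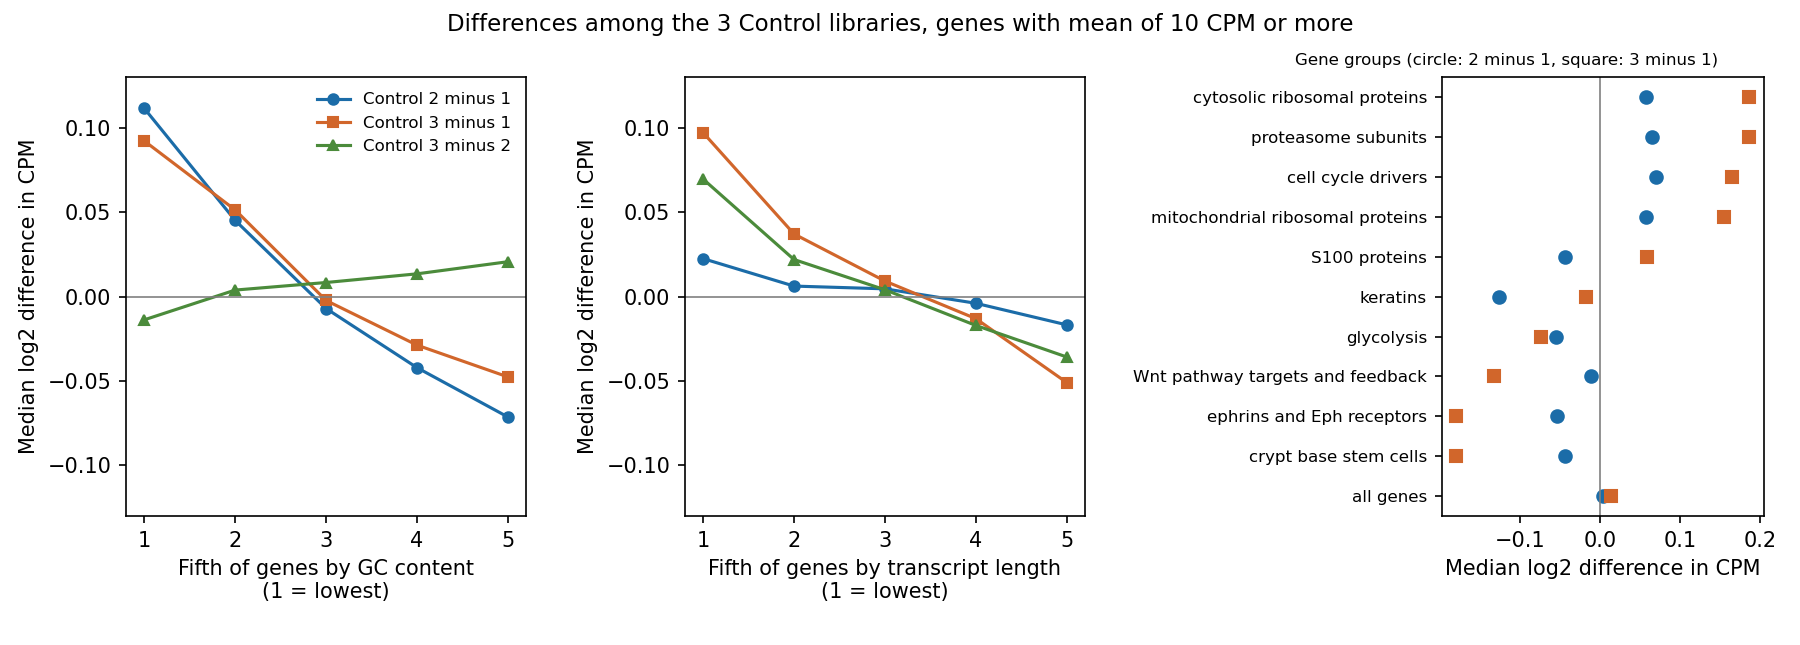
Median log2 differences in CPM between Control libraries, by 5 equal bins of genes ordered by GC content (left) and transcript length (middle), and for 10 gene groups and all genes (right). Genes of the lowest GC bin lie higher in Control 2 and 3 than in Control 1 (medians 0.11 and 0.09), and the bin of shortest transcripts lies higher in Control 3 (0.10 over Control 1).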

How the data were processed

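RNA was poly(A)-selected and made into strand-marking libraries with a NEBNext kit, per the labels' protocols. Expected counts per gene were deposited by the authors as 1 table. Bowtie, RSEM and mm9 are named in the submitters' processing notes, without versions, and the annotation, strand setting and filters were not stated in the sources read. The 3 Control columns held 27503254, 21238718 and 26466544 expected counts, with 30.3%, 28.2% and 29.8% of values not whole. Among the entries, 25 had names turned into dates, and 51 genes in 25 groups shared identical values. Counts were kept unrounded for CPM with TMM factors over the 3 columns (1.01, 0.991 and 0.997), and rounded for the dispersion in edgeR 4.0.16 and DESeq2 1.42.0 (R 4.3.3), which was checked on simulated data. No groups were compared and no test was run. A count of 0 was read as up to 3 counts.

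Lengths and GC content came from GENCODE M21 (GRCm38, a later build than mm9), matched by symbol for 97.7% of entries. Exon length is the union of a gene's exons, which 1 long rare transcript can enlarge. RefSeq promoters were matched for 75.5% of entries and 70.2% of those at 0, under the 80% needed, so promoter features by abundance were void. The search of transcript starts was added after the data were seen. The members and gene lists were chosen with earlier results of these data known. Named were the 20 highest genes, the 5 highest and up to 5 members at 0 of each list and family, Apc, Trp53, Sox17 and Lgr5, and the genes of largest and smallest spread. The other genes named (Ascl2, Atoh1, Axin2, B2m, Cd274, Ctgf, Cyr61, Eno2, Epcam, Hnf4a, Hoxa13, Hoxb13, Krt20, Ldhb, Lef1, Nlrc5, Olfm4, Pou2f3, Psmb8, Rpl34, Rpl34-ps1, Rpl41, Smoc2, Sprr2a2, Trp63, Vil1 and Zeb1) were picked after their values were seen. Values of some list members are not reported here.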

Additional observations from a re-analysis of the deposited data

How the results depend on the processing

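The count of detected genes kept within 1.5 times of 11145 under every alternative run: other scalings, totals without Rn45s, other thresholds and each library left out. The other-tissue lists had 3 members detected at 5 CPM and 12 with at least 10 counts in all 3 libraries, against 7. Without Rn45s in the totals the 100 and 1000 most abundant genes held 19.7% and 52.8% of the counts. Of the 20 highest genes per exon kb, 8 were shared with the 20 highest per coding kb and 9 with the 20 highest by share of reads. Among 135 named genes and 810 recomputed means, 7 moved by over 1 SD, and 2 moved by over 1.5 times: without Control 2, Rn45s fell to a mean of 4300 CPM and Lars2 to 488 CPM. The common biological coefficient of variation ran from 0.0455 without Control 1 to 0.0704 without Control 2, and the median in DESeq2 was 0.0392. The alternative for promoter features was not run, since that check was void. No paired analysis was possible because no groups were compared. The number of libraries limits the precision of every SD, and levels under 0.143 CPM are within 3 counts in the shallowest library.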
